A study of Mus musculus with 12 samples.

Results

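B cell identity genes are described here in the ileum of mouse pups whose dams had or had not been stressed in pregnancy. The members are Cd79a, Cd79b, Ms4a1, Pax5, Pou2af1, Igll1, Fcer2a and Cr2, and they were taken from the deposited count table by gene symbol. The 8 symbols cover 9 of the 35275 entries of the table, because Cr2 is listed with 2 identifiers. RNA sequencing libraries came from the ileum of C57BL/6 pups on postnatal day 14, 1 male and 1 female from each of 6 dams, and the word stressed refers to the dam. The 4 groups of 3 libraries were males of stressed dams, males of control dams, females of stressed dams and females of control dams. The 3 stressed dams were restrained in a ventilated tube for 2 h daily between gestational days 7 and 19, and the 3 control dams stayed undisturbed in their home cages. The design asks whether restraint of the pregnant dam changes ileal gene expression in its offspring of either sex. Littermates share a dam, so the dam is the replicate of the stress. The libraries held 16423523 to 22975526 counted reads, and the female libraries were all larger than the male ones.

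B cells recognise antigen through a membrane immunoglobulin that signals through the paired chains CD79A and CD79B. Commitment to the lineage depends on the transcription factor PAX5, and later stages add the surface proteins CD20, CD23 and CD21. In the small intestine mature B cells are gathered mainly in Peyer's patches and isolated follicles, lymphoid tissue that is spread unevenly along the ileal wall. In bulk tissue, fewer cells of a type and less RNA per cell cannot be told apart.

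Some libraries stood apart. The library labelled control male 3 was low in Fabp6, the ileal bile acid binding protein. It had 0.716 CPM (read counts scaled to library size with TMM factors), against 29.9 to 608 CPM in the other 11 libraries. The summed level of the 8 proximal small intestine markers was 8815 CPM in that library and 4504 CPM in control female 3, its littermate, against 1721 to 2177 CPM in the others. The sum of all 5 ileum markers was 67.9 CPM for control male 3, below the 115 to 828 CPM of the 10 libraries from the other dams, while its littermate lay within that range at 288 CPM. Hoxb13, a member of that list, was at 0 in every library. Exocrine pancreas markers summed to 69.6 and 60.8 CPM in the same pups, against 8.74 to 27.5 CPM elsewhere, and Cela2a, Cpa1, Prss2, Pnlip and Amy2a5 were at 0 in all 12. Small intestinal epithelium markers were present in all, with sums from 4386 to 7562 CPM. A second set of libraries, stressed male 1, stressed male 3 and control male 1, was rich in reads of the noncoding RNA gene Yam1, which took 1.00% to 4.13% of their reads and 0.171% to 0.500% in the other 9.

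Cd79a and Cd79b encode the signalling chains of the B cell receptor. The deposited table places Cd79a at chr7:24897381-24902197 and Cd79b at chr11:106311341-106314762 (mm10). Cd79a had 7.55, 10.5 and 11.2 CPM in stressed males, against 5.61, 17.3 and 0.390 CPM in control males. Its levels in females were 13.6, 5.64 and 5.16 CPM in stressed pups, against 6.58, 4.20 and 3.37 CPM in control pups. The control males thus held both the highest and the lowest of the 12 libraries, and the groups overlapped in both sexes. The value of 0.390 CPM rests on 6 reads, with an exact binomial 95% interval of 0.143 to 0.849 CPM. Like all such intervals here, it covers counting error only. Cd79b had 7.05, 7.56 and 8.96 CPM in stressed males, against 5.18, 11.3 and 2.21 CPM in control males. In females it had 7.73, 4.98 and 4.47 CPM in stressed pups, against 5.84, 4.29 and 3.93 CPM in control pups. Cd79b followed the order of Cd79a across the libraries (Spearman's rho 0.99, Pearson's r 0.95 of log2 CPM, n = 12), over a narrower range. In FPKM, which is per length, the ratio of Cd79a to Cd79b lay between 0.842 and 1.73 in 11 libraries and was 0.173 in control male 3.

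The promoter of Cd79a is shown because Cd79a had the highest level per length of the members. The 134 bases are those of the RefSeq window (GRCm38.p6) that lie before the gene start of the deposited table, chr7:24897247-24897380 on the plus strand, written 5′ to 3′. The capitals mark CAGGTG, an E-box, and TTCCTC, the reverse complement of the ETS-type motif GAGGAA.
Cd79a: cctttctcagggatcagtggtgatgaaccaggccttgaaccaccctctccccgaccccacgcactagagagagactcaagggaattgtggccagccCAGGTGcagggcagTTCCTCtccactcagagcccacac
In the whole 300-base windows, 8 of which belong to 6 member symbols, CAGGTG was found on either strand in those of Cd79a, Cr2, Fcer2a and Igll1, 4 of 8 windows, against 20.2% of all 32851 windows. GAGGAA was found in 3 of 8 windows, those of Cd79a, Igll1 and Pou2af1, against 28.3% of all. The octamer ATGCAAAT, in 1.74% of all windows, and the palindromic EBF1 motif, in 0.904%, were in none of the 8. For motifs this rare, 8 windows are too few to show a lack of them. Cd79b and Ms4a1 had no window and were not searched. No motif of the 4 is part of another, and a match describes letters in a window, not a bound site.

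Ms4a1 encodes CD20, a membrane protein of B cells that is lost in plasma cells. It lies at chr19:11249675-11266241. Ms4a1 had 6.69, 6.43 and 9.34 CPM in stressed males, against 6.53, 12.2 and 0.455 CPM in control males. Stressed females had 7.68, 4.93 and 4.47 CPM, against 4.65, 4.29 and 3.61 CPM in control females. The extremes were again control male 2 and control male 3, a 26.8-fold span, and the groups overlapped in both sexes.

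Fcer2a and Cr2 mark mature follicular B cells. Fcer2a (chr8:3681737-3694174) encodes CD23, the low-affinity receptor for IgE. It had 2.16, 3.04 and 5.08 CPM in stressed males, against 2.81, 6.13 and 0 CPM in control males. The count of 0 was in control male 3 and allows up to 0.195 CPM. Stressed females had 3.13, 1.32 and 2.44 CPM, against 1.81, 1.65 and 1.26 CPM in control females. Cr2 (chr1:195136811-195176715) encodes the complement receptors CD21 and CD35, which are also made by follicular dendritic cells. It had 2.32, 1.92 and 4.19 CPM in stressed males, against 1.89, 4.55 and 0.130 CPM in control males. In females Cr2 had 2.26, 1.37 and 1.43 CPM in stressed pups, against 0.905, 1.75 and 1.22 CPM in control pups. Both genes were highest in control male 2 and lowest in control male 3, and their groups overlapped. The second Cr2 entry (ENSMUSG00000094924, chr1:195165745-195171168) lies within the first on the same strand and had 0 to 8 reads in each library. The counting of reads over both entries is not stated in the labels or the files, so the split between them is uncertain.

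Pou2af1 (chr9:51213690-51240079) encodes a coactivator that binds octamer factors on immunoglobulin promoters. It had 3.52, 2.55 and 4.64 CPM in stressed males, against 2.81, 4.94 and 0.585 CPM in control males. Stressed females had 3.52, 2.86 and 2.03 CPM, against 2.51, 1.79 and 0.937 CPM in control females. The library order was close to that of the surface genes, with overlap in both sexes.

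Pax5 is the transcription factor that holds B cells to their lineage, and the deposited table places it at chr4:44531145-44710487 on the minus strand. It had 5.39, 1.82 and 16.1 CPM in stressed males, against 14.0, 4.25 and 0.325 CPM in control males. In females it had 2.26, 1.37 and 1.57 CPM in stressed pups, against 0.864, 2.03 and 0.937 CPM in control pups. Unlike the genes above, Pax5 was highest in stressed male 3 and second in control male 1, both rich in Yam1 reads, and the groups overlapped in both sexes.

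Igll1 (chr16:16860671-16863985) encodes lambda5, part of the surrogate light chain of the pre-B cell receptor and thus a gene of B cell precursors. It was close to the limit of detection. The counts were 3, 8 and 11 reads in stressed males, against 1, 4 and 3 reads in control males. Stressed females had 9, 15 and 3 reads, against 5, 1 and 2 reads in control females. The groups overlapped in each sex. The highest value, 0.699 CPM in stressed male 3, had an exact binomial 95% interval of 0.349 to 1.25 CPM. The promoter is shown for Igll1 because its stressed and control dams did not overlap when littermates were summed. The 250 bases before the start are chr16:16863986-16864235 on the minus strand (RefSeq, GRCm38.p6), written 5′ to 3′, and the capitals mark CACCTG, the reverse complement of the E-box CAGGTG.
Igll1: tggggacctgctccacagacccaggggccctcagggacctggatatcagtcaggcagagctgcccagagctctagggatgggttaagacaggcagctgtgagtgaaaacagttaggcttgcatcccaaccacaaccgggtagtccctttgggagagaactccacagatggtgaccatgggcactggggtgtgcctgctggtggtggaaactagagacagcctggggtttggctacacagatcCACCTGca

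**Figure D1:**
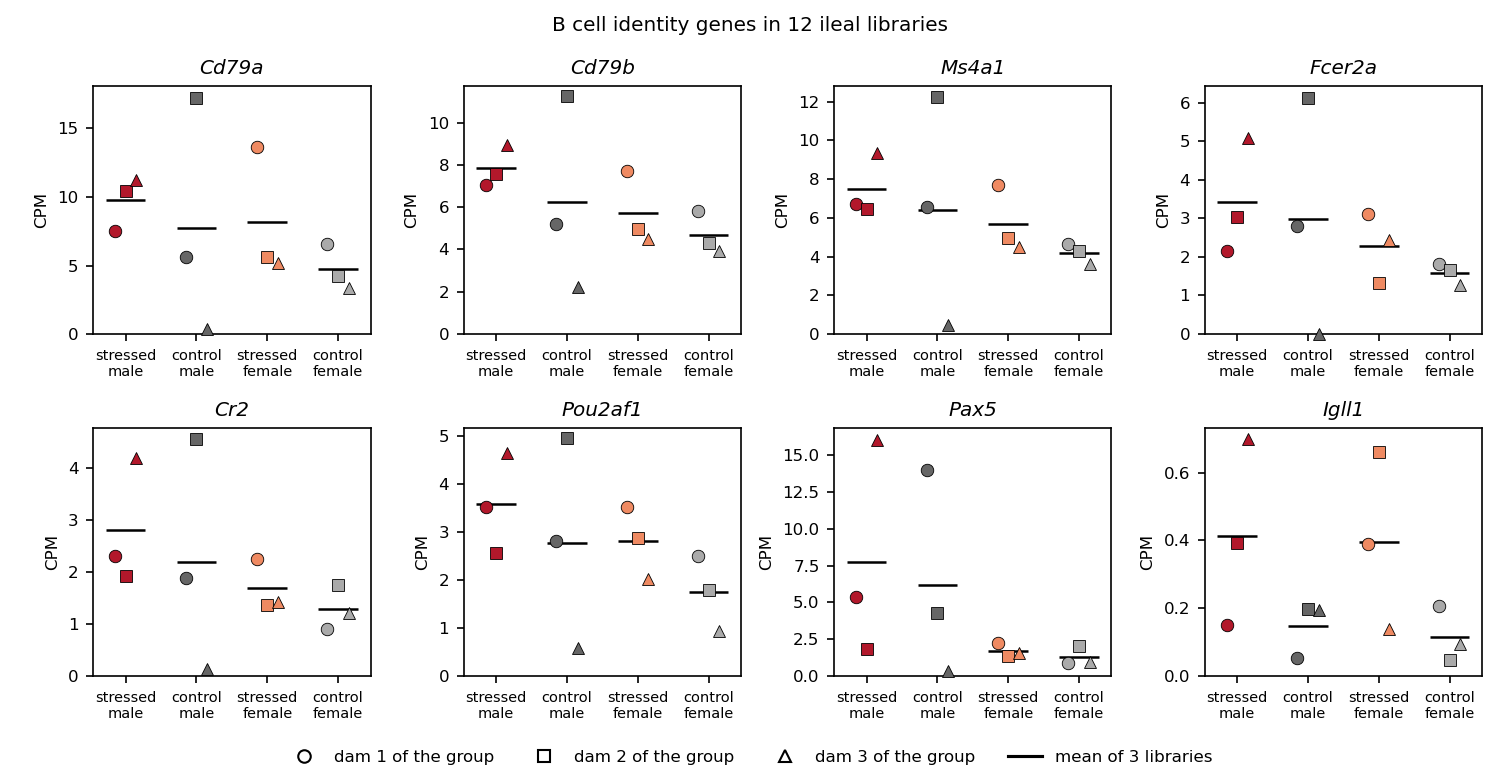
Level of each B cell identity gene in CPM (vertical axes, linear from 0, each gene on its own scale) in the 12 libraries, by group; symbols give the dam and bars the mean of 3 libraries. Control males span the whole range of most genes, from control male 3 at the bottom to control male 2 at the top, and Pax5 is highest in stressed male 3 and control male 1.

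Levels between genes were compared per length, as the authors' FPKM, with the mean and SD over the 12 libraries. Cd79a averaged 5.29 ± 3.34 FPKM and Cd79b 4.31 ± 1.80 FPKM, in that order in 9 of 12 libraries. Pax5 followed at 2.60 ± 3.16 FPKM and Ms4a1 at 1.95 ± 0.98 FPKM, but Pax5 was above Ms4a1 in only 4 of 12 libraries. Fcer2a (1.16 ± 0.75 FPKM) was below Ms4a1 in 12 of 12 libraries and above Pou2af1 (1.07 ± 0.52 FPKM) in 8. Cr2, at 0.32 ± 0.20 FPKM, was below Pou2af1 in 12 of 12, and Igll1 had the lowest mean at 0.125 ± 0.103 FPKM, below Cr2 in 10 of 12. Neighbours whose order changed between libraries, namely Cd79a and Cd79b, Cd79b and Pax5 (in that order in 10), Pax5 and Ms4a1, Fcer2a and Pou2af1, and Cr2 and Igll1, did not differ beyond their spread.

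The members varied more between libraries than most genes. The SD of log2 CPM over the 12 libraries was 1.33 for Cd79a, 0.62 for Cd79b, 1.12 for Ms4a1, 1.56 for Pax5, 0.85 for Pou2af1, 1.52 for Fcer2a and 1.11 for Cr2, against a median of 0.30 over the 16102 genes tested. Without control male 3 it was 0.73 for Cd79a, 0.48 for Cd79b, 0.52 for Ms4a1 and 1.40 for Pax5. Control male 2 was the highest library for 6 of these 7 members, and control male 3 was the lowest for 7 of 7. Control female 3 ranked 10th or 11th for each. Thus both pups of control dam 3, the ones with high proximal markers, were low in the members, and the part of the proximal signal in this was not tested.

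Of the members, 6 moved together from library to library. The 15 pairs among Cd79a, Cd79b, Ms4a1, Pou2af1, Fcer2a and Cr2 had Pearson's r of 0.87 to 0.98 (median 0.92) and Spearman's rho of 0.78 to 0.99 on log2 CPM, over 12 libraries that share their depth and scaling. Leaving out control males 2 and 3, the libraries farthest from the median, gave r of 0.62 to 0.95. Pax5 with these 6 genes had r of 0.61 to 0.78, and 0.38 to 0.73 without control male 3. For Igll1, with 1 to 15 reads in a library, no correlation was computed.

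The gene whose log2 CPM was most like the mean of the 7 tested members was Gm19980 (r = 0.98, rho = 0.93, n = 12; r = 0.94 without the 2 farthest libraries). The deposited table lists it as a lincRNA at chr4:44524757-44529159 on the minus strand, beyond the 3′ end of its Pax5 entry. In GENCODE M21 that stretch lies wholly within the last exon of Pax5 (chr4:44524757-44531582). Gm19980 had 3.19 to 5.59 CPM in stressed males, against 0.195 to 5.49 CPM in control males, and 1.45 to 3.47 CPM in stressed females, against 1.36 to 2.47 CPM in control females. With the 6 members other than Pax5 it had r of 0.92 to 0.97, while the Pax5 entry itself had the lower values given above.

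The Pax5 entry and the stretch beyond it differed in the libraries rich in Yam1 reads. The ratio of Pax5 to Ms4a1 in FPKM was 1.53 in stressed male 1, 3.27 in stressed male 3 and 4.07 in control male 1, against 0.354 to 1.36 in the other 9 libraries. The ratio of Gm19980 to Ms4a1 was 0.329 to 0.431 in these 3 libraries and 0.206 to 0.371 in the other 9, so it overlapped. The 3 libraries were chosen by their Yam1 reads after the data were seen, and the part of that signal in the Pax5 values was not tested. The genes most like Pax5 alone, a list added after the values were seen, began with Tgfbrap1 (r = 0.95), Rragc (0.93) and Xxylt1 (0.92), with mean levels of 68.7, 111 and 91.9 CPM in the same order, and of the listed B cell genes only Bach2 (0.91) was among the first 12.

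**Figure D2:**
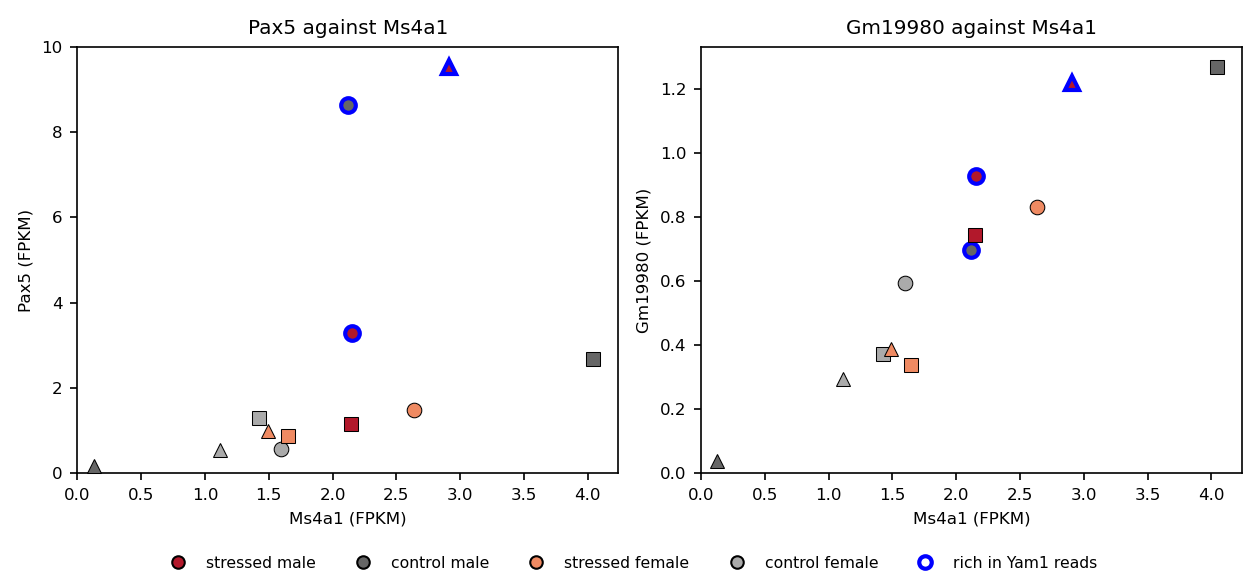
FPKM of Pax5 (left) and of Gm19980 (right) against Ms4a1 FPKM in the 12 libraries, on linear axes from 0; colours give the group, marker shapes the dam and blue outlines the 3 libraries rich in Yam1 reads. Gm19980 follows Ms4a1 in all libraries, whereas Pax5 stands at 3.30, 9.53 and 8.63 FPKM in the outlined ones and at 0.176 to 2.68 FPKM in the rest.

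Among the 12 genes most like the members' mean, Gm19980 included, were also Cd2 (r = 0.97), Tnfrsf13c (0.97), Blk (0.96), Faim3 (0.95), Mzb1 (0.95), Armc10 (0.94), Cd37 (0.93), Ccr7 (0.93) and Mfsd1 (0.92), each over 12 libraries. Tnfrsf13c encodes the receptor for the B cell survival factor BAFF, Blk a B cell tyrosine kinase, and Ccr7 a lymphocyte homing receptor. Without the 2 farthest libraries, r was 0.96 for Tnfrsf13c, 0.93 for Ccr7, 0.92 for Cd2 and 0.70 for Mfsd1. Tnfrsf13c, like Fcer2a, had no read in control male 3.

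No member passed the threshold of an adjusted p of 0.05 between stressed and control males, where 0% of the 16102 genes tested did. The test was edgeR's quasi-likelihood test with Benjamini-Hochberg adjustment. The log2 fold changes were 0.32 ± 0.78 (SE) for Cd79a, 0.33 ± 0.44 for Cd79b, 0.21 ± 0.66 for Ms4a1, 0.17 ± 0.83 for Fcer2a, 0.32 ± 0.70 for Cr2, 0.34 ± 0.56 for Pou2af1 and 0.31 ± 0.91 for Pax5. All 7 values were above 0 and smaller than their SE, with adjusted p between 0.891 and 0.977 in edgeR's fit. Their median was 0.32, against 0.01 over all genes tested, 51.7% of which had a value above 0. None of the members had every stressed male above every control male, as 2.72% of the genes tested did. Over all genes 1028 had an unadjusted p under 0.05, and DESeq2 called 0 genes with 1136 at that level.

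The direction in males rested on single libraries. Without control male 3 the log2 fold change was -0.24 for Cd79a, -0.07 for Cd79b, -0.33 for Ms4a1, -0.40 for Fcer2a, -0.21 for Cr2, -0.13 for Pou2af1 and -0.25 for Pax5. Without control male 2 it was 1.65 for Cd79a, 1.05 for both Cd79b and Ms4a1, 1.21 for Fcer2a, 1.40 for Cr2, 1.02 for Pou2af1 and 0.08 for Pax5. Pax5 was at -0.79 without stressed male 3 and at 1.70 without control male 1. Without stressed male 3, Fcer2a was at -0.21 and Cr2 at -0.07. No member was called under any of these.

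**Figure D3:**
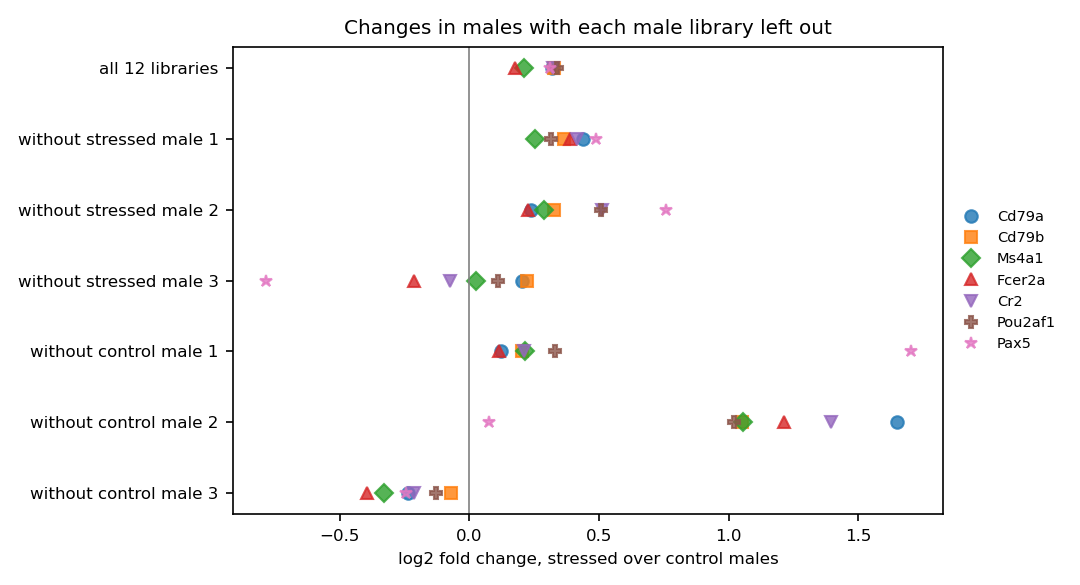
Log2 fold change of the 7 tested members, stressed over control males (horizontal axis), with all 12 libraries and with each male library left out (rows). All 7 lie above 0 with every library in and below 0 without control male 3, and Pax5 moves apart from the others.

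In females the members also had no call, with 0% of 16102 genes called by edgeR's quasi-likelihood test. The log2 fold changes were 0.79 ± 0.79 (SE) for Cd79a, 0.29 ± 0.44 for Cd79b, 0.44 ± 0.67 for Ms4a1, 0.54 ± 0.85 for Fcer2a, 0.39 ± 0.73 for Cr2, 0.68 ± 0.57 for Pou2af1 and 0.44 ± 1.01 for Pax5. All 7 were above 0, with a median of 0.44 against -0.005 over all genes, 48.5% of which were above 0. None of the 7 separated the groups, as 3.07% of genes did with every stressed female above every control female. Their unadjusted p ran from 0.262 for Pou2af1 to 0.667 for Pax5 in edgeR's fit, and each adjusted p was 1. The signs of these 7 held in every alternative run, down to 0.003 for Cd79b, though runs that left out only male libraries kept every female one. The median of the 8 members then tested, Igll1 being added, was 0.19 without stressed female 1 and 0.67 without control female 2. Igll1 entered such runs only through stressed pups, so high counts there were a condition of its being tested. These medians are thus of another set of genes than the 0.44. Over all genes 48 had an unadjusted p under 0.05, and DESeq2 called 0 genes with 49 at that level. The proximal markers were high in control female 3. Without both pups of that dam the median of the 8 members then tested, again with Igll1, was 0.36.

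The male and female changes were not shown to differ. In the test of the difference (edgeR's quasi-likelihood test, male minus female change) 0% of 16102 genes and no member passed. The differences ran from -0.47 ± 1.11 for Cd79a to 0.04 ± 0.63 for Cd79b, with a median of -0.23 over the 7 members and 0.00 over all genes. Over all genes 346 had an unadjusted p under 0.05, and DESeq2 called 0 with 395 at that level. With the dam as a block, which the design allows since littermates share a dam, Cd79a was at 0.40, Ms4a1 at 0.32, Pax5 at 0.14, Fcer2a at 0.23 and Cr2 at 0.32, so that the sign was not fixed.

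With the counts of littermates summed, so that 3 stressed dams were set against 3 control dams, no member passed and 0% of 16749 genes did (edgeR's quasi-likelihood test). Cd79a averaged 8.79 ± 1.64 CPM in stressed dams and 6.35 ± 4.31 CPM in control dams (SD, n = 3 each). Ms4a1 averaged 6.45 ± 0.71 CPM in stressed dams and 5.36 ± 3.00 CPM in control dams, and Pou2af1 3.11 ± 0.36 CPM in stressed dams and 2.28 ± 1.34 CPM in control dams. The stressed litters lay within the range of the control litters for these 3 genes except Pou2af1, where stressed dam 1 was at 3.47 CPM and the highest control dam at 3.38 CPM. The log2 fold changes were 0.47 ± 0.49 (SE) for Cd79a, 0.26 ± 0.30 for Cd79b, 0.26 ± 0.40 for Ms4a1, 0.27 ± 0.52 for Fcer2a, 0.29 ± 0.48 for Cr2, 0.45 ± 0.45 for Pou2af1 and 0.30 ± 0.78 for Pax5. Without control dam 3, Cd79a was at 0.06, Cd79b at -0.01, Ms4a1 at -0.09, Fcer2a at -0.14, Cr2 at -0.05, Pou2af1 at 0.05 and Pax5 at -0.19. Over all genes 228 had an unadjusted p under 0.05, and DESeq2 called 0 with 229 at that level.

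Igll1 was the member that separated the dams. The litters of the stressed dams had 12, 23 and 14 reads, against 6, 5 and 5 reads in those of the control dams. Every stressed dam was above every control dam in CPM, as was so for 2.53% of the genes tested, and the groups of the other 7 members overlapped. The log2 fold change was 1.55 ± 0.38 (SE), with an unadjusted p of 0.00444 and an adjusted p of 0.9999 in edgeR's quasi-likelihood test. Igll1 passed the filter on low counts only through the stressed dams, so that a higher value there was a condition of its being tested. With 3 dams a side, an exact test cannot go below 0.1. Leaving out each dam in turn gave log2 fold changes of 1.26 to 1.76, with the filter again passed only through stressed dams. Vpreb1 and Vpreb2, which encode the other chain of the surrogate light chain, were also near 0, with 0 to 14 reads of Vpreb1 and 0 or 1 read of Vpreb2 in a library. The early B lineage genes had a log2 fold change above 0 in 3 of 5 tested over dams, against 51.3% of all genes. Their median was 0.00, and Il7r, the interleukin 7 receptor, was at -0.45 ± 0.14 (unadjusted p 0.0155, adjusted p 0.9999 in edgeR's fit).

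**Figure D4:**
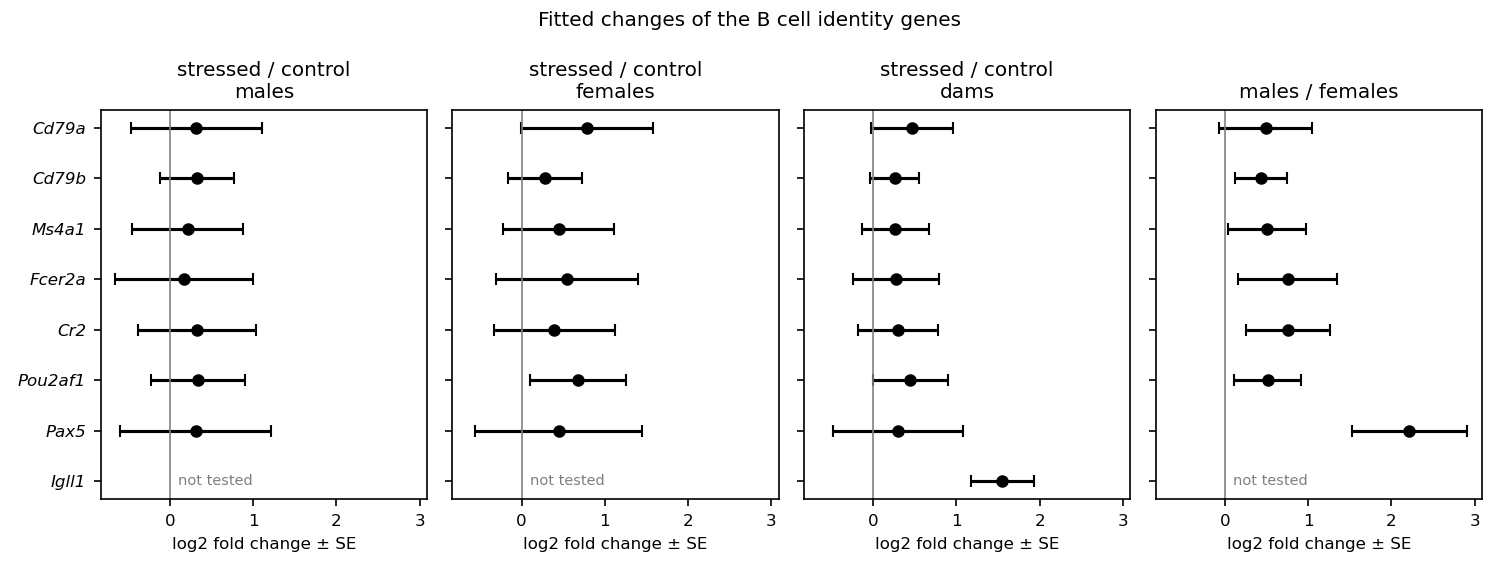
Log2 fold change (horizontal axes) with its SE (bars) of each B cell identity gene in 4 comparisons, from edgeR's fit to all genes. Every value tested is above 0, and the bars of the stress comparisons reach to or below 0 for most members. The largest values are Pax5 between the sexes (2.22) and Igll1 over dams (1.55), neither past the adjusted threshold. Igll1 passed the filter only through the stressed dams, so a higher value there was a condition of its being tested.

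Males were set against females over both stress groups, and the 8 genes called made up 0.0497% of 16102, none of them a member. DESeq2 called 18, and the fit with the dam as a block called 6. Pax5 had a lowest, median and highest level of 0.325, 4.82 and 16.1 CPM in the 6 males, against 0.864, 1.47 and 2.26 CPM in the 6 females. The sexes overlapped through stressed male 2 and control male 3. Its log2 fold change was 2.22 ± 0.69 (SE), with an unadjusted p of 0.00799 and an adjusted p of 0.411 in edgeR's quasi-likelihood test. It was 0.48 without the 3 libraries rich in Yam1 reads, all of them male, and 1.65 with the dam as a block. Without stressed male 2 it was 2.46 and passed, with an adjusted p of 0.0462, when 1384 genes passed. The other 6 members had values from 0.43 ± 0.31 for Cd79b to 0.76 ± 0.51 for Cr2, with adjusted p between 0.484 and 0.680. The median of the 7 was 0.51, against 0.00 over all genes, 49.4% of which were above 0. No member had every male above every female, as 0.112% of genes did.

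Other genes of the B lineage gave no call in any of the 5 comparisons. Over dams, 51.3% of all genes tested had a log2 fold change above 0, with a median of 0.005. Of the B cell receptor signalling and surface genes 14 of 21 were above 0, with a median of 0.12. Cd74, the invariant chain that other antigen-presenting cells also make, was at -0.07 ± 0.21 (SE), and the kinase gene Lyn at -0.23 ± 0.12. Of the B cell transcription factors 7 of 12 were above 0 (median 0.11), among them Bach2 at 0.29 ± 0.24 and Mef2c at 0.13 ± 0.11. Germinal centre genes had 3 of 5 above 0 (median 0.01). Plasma cell genes had 5 of 7 above 0 (median 0.03), and the joining chain gene Igj ran the other way at -1.32 ± 0.45 (unadjusted p 0.0221, adjusted p 0.9999 in edgeR's fit). Igj had 0.302, 1.67 and 0.508 CPM in stressed males, against 2.65, 2.23 and 3.84 CPM in control males. In males its adjusted p was 0.752 in edgeR's quasi-likelihood test. In females the log2 fold change of Igj was -0.34 ± 0.62 (SE), and the groups overlapped. Control male 3, lowest in the members, was highest in Igj. The immunoglobulin constant chains were split at 2 of 4 above 0, with a median of -0.01. Among them were Igha at -1.32 ± 0.62 (SE) and Ighm at 0.04 ± 0.26.

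In males alone, 13 of 21 receptor genes, 9 of 12 transcription factors and 0 of 4 immunoglobulin constant chains had a log2 fold change above 0, with medians of 0.09, 0.09 and -0.44. In females these were 13 of 21, 6 of 12 and 3 of 4, with medians of 0.11, 0.01 and 0.31.

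Markers of neighbouring cells were set beside the members over dams, where 51.3% of all genes tested were above 0. Follicle organisation genes had a log2 fold change above 0 in 8 of 13 (median 0.11), M cell and follicle-associated epithelium genes in 4 of 9 (median -0.11) and T cell markers in 10 of 18 (median 0.05). Plasmacytoid dendritic cell markers had 6 of 7 above 0 (median 0.06), follicular dendritic cell markers 3 of 5 (median 0.02) and macrophage markers 1 of 11 (median -0.17). Small intestinal epithelium markers had 1 of 7 above 0 (median -0.11), ileum markers 3 of 4 (median 0.20), exocrine pancreas markers 1 of 4 (median -0.62) and proximal small intestine markers 0 of 7 (median -2.19). None of these genes was called, and their part in the members' values was not tested. T cell markers summed to 72.6 to 102 CPM in stressed males, against 69.9 to 101 CPM in control males, and to 71.8 to 77.4 CPM in stressed females, against 60.8 to 79.6 CPM in control females. Cxcl13, the chemokine that draws B cells into follicles, had 4.33, 8.94 and 7.05 CPM in stressed males, against 6.26, 12.8 and 1.82 CPM in control males. It was thus also highest in control male 2 and lowest in control male 3.

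The authors' deposited table gave the same absence of calls. In the authors' deposited table the log2 fold changes of the 8 genes (first entry of Cr2) ran from 0.02 for Fcer2a to 0.26 for Igll1 in males and from 0.10 for Cr2 to 0.22 for Cd79a in females, with the direction as stressed over control per its column names. For stressed against control pups of both sexes the authors' deposited table had 0.04 for Pax5 to 0.37 for Igll1, with an adjusted p of 0.9996 for each. None of the 22920, 23219 and 24145 genes with an adjusted p in the authors' deposited table for males, females and both sexes was below 0.05.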

How the data were processed

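The 12 libraries were grouped by the labels into 4 groups of 3. The deposited count table holds whole-number counts of reads per gene, and the deposited FPKM table was recomputed from those counts, the gene length and the library total to within 1e-06. The authors' table of comparisons gives log2 fold changes and adjusted p-values, per the file headers. Builds GRCm38 and mm10 and the tools STAR 2.5, TopHat, HTSeq 0.6.1, edgeR 3.16.5 and DESeq2 appear in the submitters' processing notes, without their roles. Annotation release and strandedness are not given in the sources used here, and without strand a gene and its antisense partner cannot be told apart.

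The tool for the counts was edgeR 4.0.16 under R 4.3.3, with TMM scaling, filterByExpr (minimum count 10) and the quasi-likelihood test, over all genes, with Benjamini-Hochberg adjustment and a threshold of 0.05. The 4-group fit left 8 residual degrees of freedom and tested 16102 genes, 7 of the 9 member entries among them. The fit of dams, with littermates summed, tested 16749 genes and 8 entries, Igll1 being added. The second Cr2 entry was tested in neither. Log2 CPM for correlations used a prior count of 2. Alternatives used DESeq2 1.42.0 and limma 3.58.1. The fits were tested on counts simulated without litter structure, with changes planted only in genes of more reads than Igll1. Fold changes are stressed over control, or males over females.

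The members and the gene lists were chosen with earlier results of these data known. In 16 lists 163 of 168 symbols were matched, and Fcmr, Ighd, Iglc1, Iglc3 and Serpina1 were not. Named beside the members were, from each list, genes of the 2 highest mean CPM and of the 2 smallest unadjusted p, and the 12 genes of at least 1 CPM most correlated with the members' mean. Some genes that this takes are not reported here. Cxcl13, Vpreb1 and Vpreb2 were picked after their values were seen. Littermates share a dam by the labels, so the dam was a block in an alternative run between the sexes and for the difference. The main fits of those comparisons had no block and treated littermates as independent. Deviations of littermates correlated only from -0.362 to 0.545. Deviations of same-numbered pups of stressed and control dams correlated from -0.329 to 0.306. Littermates, a known pairing, also gave both signs, so this measure cannot exclude a pairing by number. The main fits used no pairing by number either. Promoter windows are RefSeq's (GRCm38.p6).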

Additional observations from a re-analysis of the deposited data

How the results depend on the processing

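The count of members called stayed 0 in every comparison and alternative run, except that Pax5 was the 1 called between the sexes without stressed male 2. Over all genes, leaving out each library gave 0 to 1 calls in males and 8 to 1384 calls between the sexes, the highest in both cases without stressed male 2. Between the sexes DESeq2 called 18, and 5 were called without the 3 libraries rich in Yam1 reads, a choice made after seeing the data that leaves 1 stressed male, assumed to vary like the other groups. Counting each member under each alternative, the sign turned 22 times in males, 6 times over dams, 40 times for the difference, 2 times between the sexes and 0 times in females. It held 132, 104, 107, 144 and 154 times in the same order, with 1 more value between the sexes that kept its sign and passed the threshold (Pax5). These counts are not independent, because most members moved together and the runs share most libraries. Runs that left out only pups of 1 sex kept every library of the other sex. In males, leaving out each library gave log2 fold changes of -0.24 to 1.65 for Cd79a, -0.072 to 1.05 for Cd79b, -0.33 to 1.05 for Ms4a1, -0.79 to 1.70 for Pax5, -0.13 to 1.02 for Pou2af1, -0.40 to 1.21 for Fcer2a and -0.21 to 1.40 for Cr2. Without both pups of control dam 3 these were -0.24, -0.073, -0.33, -0.25, -0.13, -0.40 and -0.22 in the same order of genes. Without the libraries rich in Yam1 reads Ms4a1 was at -0.0017, Pax5 at -0.37, Pou2af1 at -0.15, Fcer2a at -0.048 and Cr2 at -0.33. Over dams, leaving out each dam gave -0.0079 to 0.60 for Cd79b, -0.091 to 0.73 for Ms4a1, -0.41 to 1.14 for Pax5, -0.14 to 0.89 for Fcer2a and -0.054 to 1.03 for Cr2. For the difference of changes, leaving out each library gave -1.02 to 0.89 for Cd79a, -0.36 to 0.79 for Cd79b, -0.77 to 0.63 for Ms4a1, -1.23 to 1.26 for Pax5, -0.80 to 0.36 for Pou2af1, -0.93 to 0.70 for Fcer2a and -0.60 to 1.03 for Cr2. Cd79b was at -0.24 without both pups of control dam 3 and at -0.14 without the libraries rich in Yam1 reads. With limma on log2(FPKM + 1) Cd79a was at 0.23, Ms4a1 at 0.094, Pax5 at 0.16, Fcer2a at 0.018 and Cr2 at 0.036, and on log2(FPKM + 0.1) at 0.68, 0.53, 0.38, 0.61 and 0.32. Between the sexes Cd79a was at -0.024 on log2(FPKM + 0.1), and -0.17 to 0.80 with each library left out. The cause of these changes was not tested.

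With the dam as a replicate block, Cd79a was at 0.40, Ms4a1 at 0.32, Pax5 at 0.14, Fcer2a at 0.23 and Cr2 at 0.32 in the difference, and Pax5 at 1.65 between the sexes. The dam number as a block changed no call. Igll1, at 0.047 to 0.699 CPM, had no value under a mean of at least 1 CPM, and at that depth smaller differences could not be detected.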
